A study of Homo sapiens with 12 samples.

Results

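The transcriptomes of PMA-differentiated THP-1 cells labelled as SDC3 knockout or wild type were compared in the absence of interferon gamma (IFN-γ). THP-1 is a human monocytic leukaemia line, and phorbol 12-myristate 13-acetate (PMA) turns it into adherent macrophage-like cells. The comparison rested on 6 of the 12 RNA sequencing libraries of the series: 3 libraries labelled SDC3-KO and 3 labelled WT, for wild type. Every one of these cultures had 20 ng/ml PMA for 24 h, then fresh medium, and no IFN-γ. The other 6 libraries were the same genotypes with recombinant human IFN-γ. The series' design text speaks of lines in which CRISPR/Cas9 was used to knock out the gene, without their number or which line gave which library. The knockout libraries may all come from 1 clone, and an effect of the SDC3 knockout cannot be told apart from other differences between the lines. The labels do not say whether the replicates of a group were grown as separate cultures. The p-values therefore reflect the variation among the deposited libraries alone, and this may be technical. Of 58051 genes in the deposited table, the 17119 that passed a filter on low counts were compared, with no selection on the outcome.

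SDC3 encodes syndecan-3, a transmembrane proteoglycan whose heparan sulphate chains bind chemokines, growth factors and matrix proteins at the cell surface. Syndecans are a small family with short cytoplasmic tails that link to the cytoskeleton and to signalling scaffolds, and macrophages carry several of them. PMA acts through protein kinase C and ERK signalling, and drives THP-1 cells out of the cycle and into a macrophage programme with adhesion receptors, lysosomes and scavenger receptors. The comparison without IFN-γ addresses how the knockout cells differed from wild type in cultures that were given no IFN-γ.

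The 6 libraries held 23616738 to 29094362 counts assigned to genes, with a count in 22522 to 23426 genes. CPM are counts scaled to library size. By the plain library totals 3 counts correspond to 0.103 to 0.127 CPM. The CPM values printed below use totals multiplied by scaling factors of 1.08 to 1.12, which makes them slightly lower. The intervals on counts given below cover counting error only. Macrophage genes were measured at high levels in both genotypes. CSF1R, the receptor for macrophage colony-stimulating factor, was at 1469.9, 1423 and 1424 CPM in knockout libraries and 1214, 1254 and 1284 CPM in wild type. ITGAM, the integrin chain CD11b, was at 471, 458 and 457 CPM and 521, 554 and 569 CPM in the same order. T and NK cell markers were low: the 16 of them summed to 6.98 to 9.09 CPM in the knockout and 9.53 to 10.97 CPM in wild type. Not every list of other cell types was as low: dendritic cell and osteoclast markers summed to 219 to 224 CPM and 278 to 296 CPM in the same order. Wild-type replicate 1 lay nearer the knockout than its fellow replicates: among the genes called at least 2-fold different it was the wild-type library closest to the knockout mean for 57.5%, against 20.9% and 21.6% for replicates 2 and 3. Without it 4195 genes were called higher and 4148 lower, 547 and 1087 by at least 2-fold. Fold changes are given as log2 of knockout over wild type. The standard error (SE) was back-calculated from edgeR's F statistic, as the absolute log2 fold change divided by the square root of F. It is not a reliable error of the fold change where a group is near 0 counts. A gene is called at a Benjamini-Hochberg adjusted p under 0.05 in edgeR's quasi-likelihood test.

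SDC3 itself (ENSG00000162512, hg38 chr1:30869467-30908761, minus strand) stood at 196, 252 and 242 CPM in the 3 WT libraries, and SDC3-KO libraries gave 49.9, 48.2 and 43.9 CPM. The groups did not overlap, and the transcript was reduced to 20.6% of wild type rather than lost. Its log2 fold change was -2.28 ± 0.06 (SE; adjusted p = 9.21e-24). A count over the whole gene does not show whether the remaining transcript makes protein.

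The genotypes differed across a large share of the transcriptome. Of 17119 genes, 8583 (50.1%) were called: 4343 higher in the knockout (25.4%) and 4240 lower (24.8%). Most differences were small. The median log2 fold change over all genes was 0.01, 9 genes in 10 lay between -1.26 and 0.87, and the median absolute difference was 0.28. Requiring at least a 2-fold difference left 9.12% of genes, 518 higher (3.03%) and 1044 lower (6.1%). Among genes averaging 100 CPM or more, 987 were called higher and 726 lower, but only 17 and 23 of these by 2-fold or more. These shares are the background against which counts of named groups are read below: a list with about 25% of its members called in each direction is like the transcriptome as a whole.

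The rises with the largest fold changes (at least 5 CPM in the higher group, libraries not overlapping) included acute-phase, growth factor receptor, matrix and antiviral genes. KIT, the receptor tyrosine kinase for stem cell factor, was at 41.6, 44.8 and 42.1 CPM in knockout libraries and 9.72, 6.04 and 5.10 CPM in wild type, a 6.22-fold rise with a log2 value of 2.64 ± 0.13 (SE; adjusted p = 5.61e-17). Wild-type replicate 1 was the highest of the wild-type libraries for KIT, yet it stayed below every knockout library. ORM1, an acute-phase glycoprotein of plasma, was at 77.4, 68.3 and 75.2 CPM against 16.5, 9.62 and 10.8 CPM, or 2.60 ± 0.10 (SE; adjusted p = 1.55e-19). Its near-identical neighbour ORM2 was at 9.14, 8.55 and 9.84 CPM against 1.98, 0.802 and 0.805 CPM, and reads cannot be divided between the pair with certainty. PADI2, an enzyme that converts arginine to citrulline in proteins, rose 4.59-fold, from 73.9, 52.7 and 54.9 CPM in wild type to 284, 273 and 273 CPM in the knockout. MMP7, a matrix metalloproteinase, was at 37.1, 36.8 and 36.01 CPM against 11.6, 5.55 and 5.30 CPM, and THBS1, the matrix glycoprotein thrombospondin-1, at 5.44, 5.29 and 6.03 CPM against 1.64, 0.802 and 1.21 CPM. The remaining members of this set were the interferon-induced genes MX1 (2.07) and IFI6 (1.92), the serotonin receptor HTR2B (2.35), LRRC17 (2.10), the transcription factor KLF15 (1.96) and the lysyl oxidase-like enzyme LOXL4 (1.88), with adjusted p from 4.02e-08 for KLF15 to 7.92e-19 for IFI6. In all 12 genes the highest wild-type value belonged to replicate 1. Without that library the rises of KIT and MMP7 were 2.94 and 2.75 on the log2 scale.

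The falls were larger than the rises. CD93 (ENSG00000125810, chr20:23079349-23086340, minus strand), a C-type lectin-like receptor of monocytes and endothelium, had 6 counts in the 3 knockout libraries together, against 12803 in wild type. In CPM this was 0, 0.0638 and 0.129 against 129, 152 and 150.3, and the log2 fold change was -10.98 (adjusted p = 1.47e-30). With 1 library left out in turn the log2 fold change ran from -11.87 to -10.48. Since the knockout level rests on 6 counts, the size of this fall is uncertain. IGF2BP1, an mRNA-binding protein of fetal tissues and tumours, had 6 counts in the knockout against 1583, with 15.9, 19.5 and 17.8 CPM in the wild-type libraries. COLEC12, a collectin that works as a scavenger receptor, was at 0.504, 0.574 and 0.710 CPM against 25.4, 28.8 and 31.4 CPM, a 47.3-fold fall. NAV3, which binds microtubule ends, was at 5.04, 4.15 and 5.68 CPM against 111, 126 and 119.8 CPM, or -4.59 ± 0.10 (SE; adjusted p = 2.23e-26). CCL2, the main monocyte-attracting chemokine, was at 0.360, 0.638 and 0.194 CPM against 7.62, 9.25 and 9.39 CPM. For these genes the lowest wild-type library was at least 10-fold above the highest knockout library. The same set held the transcription factor KLF12 (-5.06), the adenylyl cyclase ADCY8 (-4.97), OTOF (-4.81), CLIC6 (-4.24), PNMA2 (-4.01), the nuclear envelope protein SYNE1 (-3.99) and GOLGA7B (-3.71), with adjusted p of 2.03e-14 (ADCY8) or lower.

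**Figure D1:**
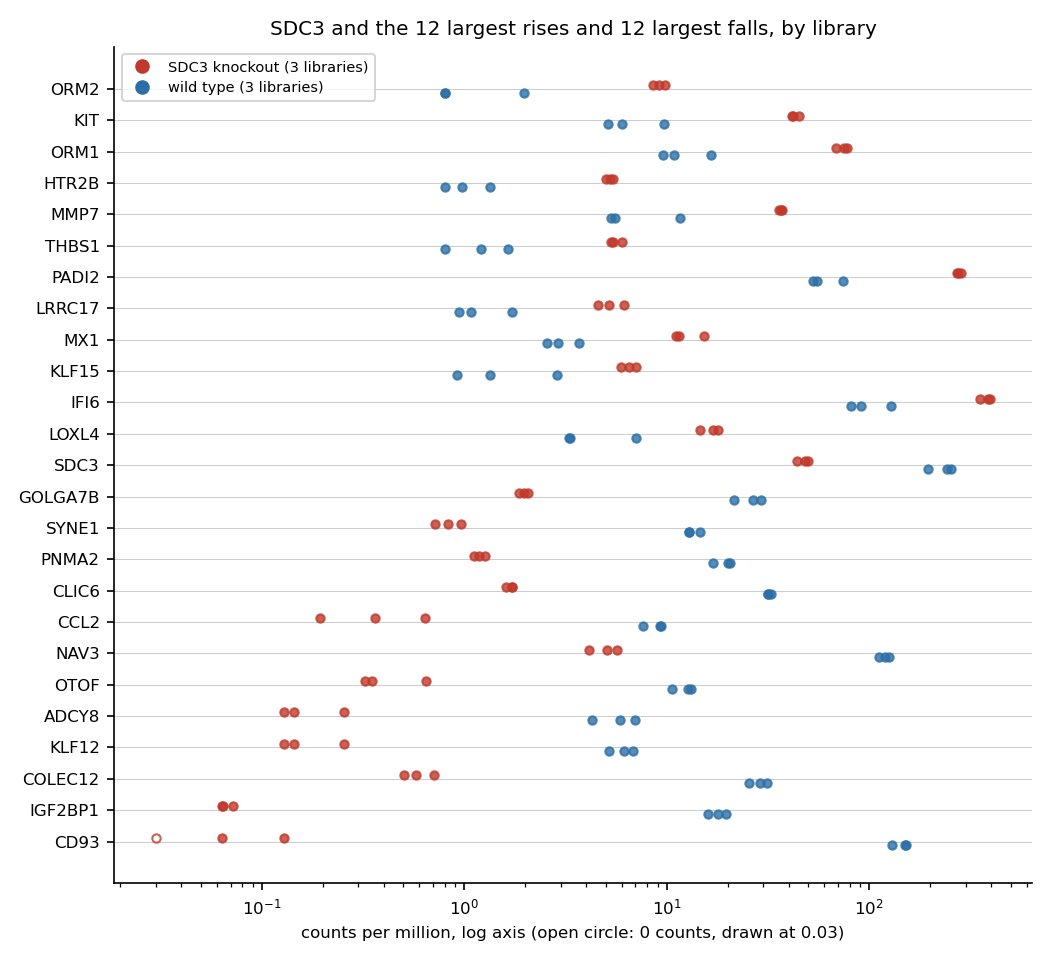
Level in CPM by library, on a log axis, for SDC3 and the 12 largest rises and falls; red points are the 3 knockout libraries and blue points the 3 wild-type libraries. The groups do not overlap in any row, which the choice of these genes required, and CD93 and IGF2BP1 lie near 0 in the knockout (an open circle is a library with 0 counts).

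Some transcripts were not detected or barely detected in the knockout. RTN1, an endoplasmic reticulum protein of neurons and macrophages, had 0 counts against 282 over the 3 wild-type libraries, which is at least 98.0-fold lower when 3 counts are taken as the limit over the group. On the same footing DCLK2 (0 against 146) was at least 50.8-fold lower, PLAAT3 (0 against 113) at least 39.3-fold and RND3 (0 against 100) at least 34.8-fold. TSPYL5 had 2 counts against 422, or 220 times fewer (exact 95% interval from counting error, 60.5 to 1823). PLPP2 had 2 against 362 (ratio 189, interval 51.9 to 1565) and CXCL13, a B cell-attracting chemokine, 2 against 166 (ratio 86.6, interval 23.6 to 721). Mates of a read pair were counted separately, so these intervals are narrower than the fragments allow. Among genes averaging at least 1 CPM in one genotype, 12 had 3 counts or fewer over the 3 libraries of the other, and for each of them the knockout was the lower group.

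The 6 most abundant rises and the 6 most abundant falls of at least 2-fold are given next, chosen by level and not by size of change. Larger changes occurred below that level, among them CSF1 (10.05-fold lower), SDC3 (4.87-fold lower) and PADI2 (4.59-fold higher), each above 100 CPM in one genotype. S100A8 and S100A9, the subunits of calprotectin, were at 581, 546 and 562 CPM and 872, 792 and 791 CPM in the knockout libraries, against 319, 251 and 256 CPM and 439.7, 394 and 371 CPM in wild type, 2.05-fold and 2.04-fold higher. Complement C3 rose from 208, 195 and 188 CPM to 470.2, 460.1 and 451 CPM, and the C5a receptor C5AR2 from 168, 156 and 159.6 CPM to 335, 327 and 329 CPM. ITGA6, the laminin-binding integrin chain, was at 417, 422 and 445 CPM against 190.0, 151 and 150.2 CPM (log2 fold change 1.39 ± 0.06 SE, with adjusted p = 3.39e-19), and the lysosomal fucosidase FUCA1 was 2.50-fold higher. In the other direction SGK1, a serum- and glucocorticoid-regulated kinase, was at 97.98, 96.9 and 95.97 CPM against 364, 379 and 404 CPM, or -1.98 ± 0.05 (SE; adjusted p = 2.49e-25). SPP1, the secreted phosphoprotein osteopontin, was at 699.8, 669 and 694 CPM against 1358, 1395 and 1459.7 CPM. CYBB, the membrane subunit of the phagocyte NADPH oxidase, fell 2.10-fold, the transferrin receptor TFRC 2.03-fold, PHLDA1 2.09-fold and the phosphate transporter SLC20A1 2.99-fold. No group overlapped for any of these 12 genes.

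Functional lists of genes were then described by how many of their tested members were called in each direction, beside the 25.4% higher and 24.8% lower of all genes. In bulk RNA fewer cells of a type and less RNA per cell cannot be told apart, which applies to every list of markers. Among lists with at least 10 tested members, those with the highest median were monoblast and granule genes (0.57), the interferon receptor and JAK-STAT list (0.42) and type I interferon-stimulated genes (0.41). Those with the lowest were MHC class II presentation (-1.15), macrophage differentiation markers (-0.35) and AP-1 and early growth response factors (-0.33).

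**Figure D2:**
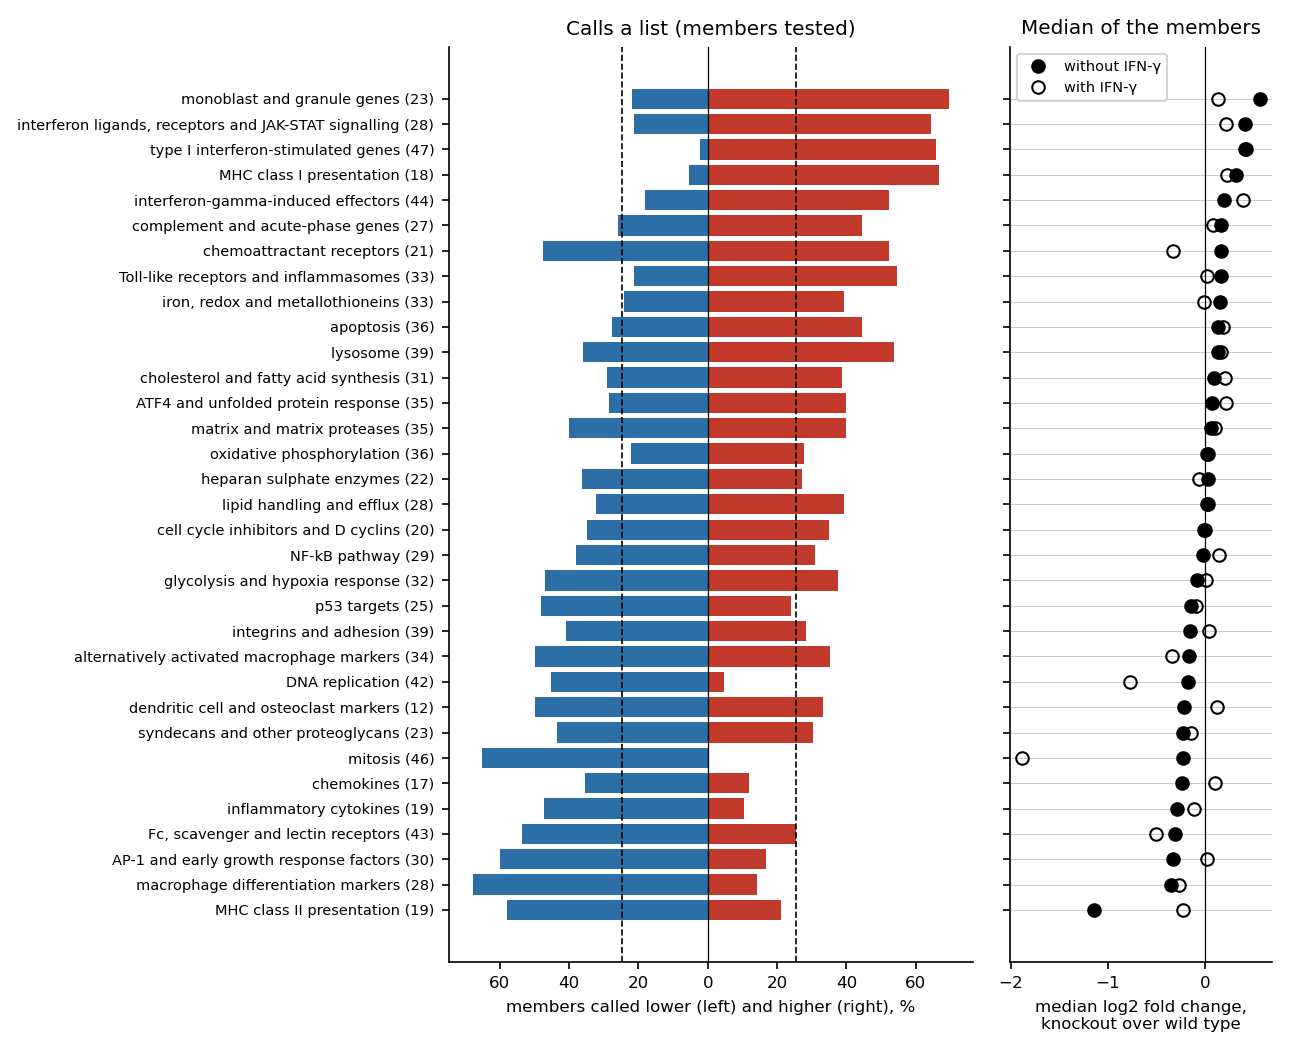
For each list with at least 10 tested members, the left panel shows the percentage of members called lower (blue) and higher (red), with dashed lines at the values for all genes, 24.8% and 25.4%. The right panel shows the members' median log2 fold change, knockout over wild type, without IFN-γ (filled) and with it (open); the mitosis list lies at -0.22 without IFN-γ and at -1.88 with it.

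Many interferon-stimulated genes were higher in the knockout, in cultures to which no interferon had been added. Type I interferons signal through IFNAR1 and IFNAR2 to the kinases TYK2 and JAK1, and a transcription factor complex that includes IRF9 then binds interferon-stimulated response elements in the promoters of antiviral genes. Of 47 such genes 31 (66.0%) were called higher and 1, TRIM22, lower by 0.14 (a call lost in 7 of 15 alternative settings), with a median log2 fold change of 0.41 against 0.01 over all genes. IFI6, a mitochondrial protein induced by interferon, was at 396, 386 and 352 CPM in knockout libraries and 128, 91.5 and 81.1 CPM in wild type (log2 fold change 1.92 ± 0.08 SE, with adjusted p = 7.92e-19). MX1, a dynamin-like antiviral GTPase, was at 11.5, 15.3 and 11.2 CPM against 3.70, 2.90 and 2.55 CPM (log2 fold change 2.07 ± 0.11 SE, with adjusted p = 3.27e-16). IFITM1, a membrane protein that blocks virus entry, was at 3.02, 2.81 and 1.81 CPM against 0.877, 0.493 and 0.369 CPM, and IFITM3 at 72.7, 68.2 and 65.3 CPM against 33.9, 32.5 and 35.3 CPM. LGALS3BP, a secreted galectin-3 ligand, was at 326, 326 and 310.1 CPM against 146, 139.7 and 133 CPM. For all 5 genes the knockout libraries lay above the wild-type libraries. RSAD2 (1.72), CMPK2 (1.30), IFI27 (1.99) and IFI44L (3.04) rose as well, from wild-type means below 2 CPM. The rise was not shared by the whole list: IFIT2 (-0.24, adjusted p = 0.082), IFIT3 (0.05, 0.488), OAS1 (0.03, 0.656) and STAT2 (0.06, 0.198) were not called. Of the interferon genes themselves, IFNB1, IFNA1, IFNA2, IFNG, IFNL1, IFNE and IFNK had 0 counts in all 6 libraries. By the plain library totals this allows up to 0.127 CPM in a library. Outside stretches of neighbouring genes that were shifted together (described below), 28 of 42 members were called higher and 1 lower. Without wild-type replicate 1 the list had 31 genes higher and 2 lower.

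The promoters of the interferon-stimulated genes that rose were searched for the core of the response element because the list is defined by that regulation. Sequences are from RefSeq promoters (GRCh38.p14), of which 11561 matched the genes tested, and were searched on both strands for GAAANNGAA in the 250 bases before the start of transcription. Of 24 called-higher interferon-stimulated genes with a promoter in the table, 16 (66.7%) held a match, against 5.72% of the promoters of all tested genes. Over all tested members of the list, called or not, it was 22 of 38 (57.9%). Among all 3278 called-higher genes with a promoter the share was 5.92%, and among the 298 that rose at least 2-fold it was 10.1%. The windows around the match are shown for 6 of these genes on the gene's strand, 5′ to 3′, with the match in capitals:
IFI6: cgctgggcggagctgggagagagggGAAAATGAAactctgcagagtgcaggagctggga
IFITM1: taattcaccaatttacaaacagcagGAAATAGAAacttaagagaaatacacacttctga
IFITM3: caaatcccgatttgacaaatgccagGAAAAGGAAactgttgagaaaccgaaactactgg
RSAD2: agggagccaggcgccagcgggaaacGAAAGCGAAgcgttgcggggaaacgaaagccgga
LGALS3BP: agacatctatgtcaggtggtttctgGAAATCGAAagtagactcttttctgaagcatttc
ISG15: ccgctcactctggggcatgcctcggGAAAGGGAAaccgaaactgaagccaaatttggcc
They lie at IFI6 chr1:27672315-27672373 (minus strand), IFITM1 chr11:313975-314033 (plus strand), IFITM3 chr11:320879-320937 (minus strand), RSAD2 chr2:6865781-6865839 (plus strand), LGALS3BP chr17:78979948-78980006 (minus strand) and ISG15 chr1:1013359-1013417 (plus strand). The match begins 156, 40, 52, 79, 58 and 113 bases before the start in the same order. A match describes the letters in the window and does not show that a factor was bound there.

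**Figure D3:**
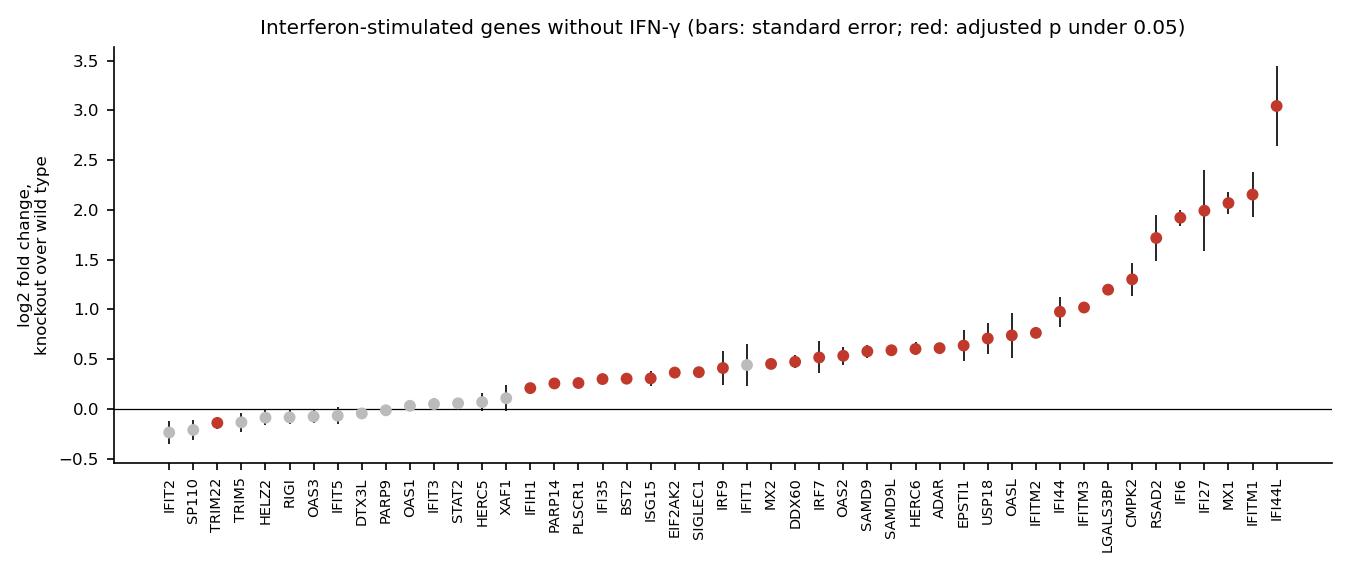
Log2 fold change of knockout over wild type without IFN-γ for each of the 47 interferon-stimulated genes, in rising order, with the standard error as a bar; red points passed the test. The genes run from -0.24 for IFIT2 to 3.04 for IFI44L, and 31 of the 32 called genes lie above 0.

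Most measured genes that receive and pass on interferon signals were also higher. Of 28 tested receptor, kinase, STAT and inhibitor genes 18 rose and 6 fell. The type I receptor chains IFNAR1 (298, 324 and 336 against 231, 207 and 218 CPM) and IFNAR2 (71.8, 68.6 and 68.7 against 45.1, 42.3 and 39.7 CPM) rose with log2 values of 0.55 and 0.72. The IFN-γ receptor chains IFNGR1 and IFNGR2 rose by 0.42 and 0.46, and the IL-10 receptor chain IL10RB by 0.81. IFNAR1, IFNAR2, IFNGR2 and IL10RB sit together on chromosome 21, in a block of 46 tested genes whose own median was 0.45. The kinase JAK2 rose by 0.66. IRF1, a transcription factor of the interferon response, was at 70.01, 68.4 and 69.5 CPM against 42.3, 44.8 and 41.1 CPM (log2 fold change 0.70 ± 0.04 SE, with adjusted p = 2.72e-15). STAT4 rose 3.22-fold from about 1 CPM. The falls were STAT6 (-0.84), which transmits IL-4 signals, JAK3 (-0.48), STAT5A (-0.29), STAT5B (-0.43) and the phosphatases PTPN6 (-0.34) and PTPN1 (-0.17). STAT6 lies in the block of chromosome 12 with the lowest median of the genome, -0.68.

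Genes that IFN-γ induces in macrophages changed in both directions, with more rises than falls. Of 44 tested members 23 (52.3%) rose and 8 (18.2%) fell (median 0.19). GBP4, a guanylate-binding protein, was at 30.6, 31.3 and 31.5 CPM in the knockout and 13.5, 12.9 and 13.4 CPM in wild type, and NLRC5, the activator of MHC class I genes, at 103, 109.8 and 105 against 53.1, 50.01 and 51.3 CPM; both lay clear of the wild-type range and rose 2.35-fold and 2.06-fold. The closely related GBP1 moved the other way, at 6.98, 7.21 and 8.39 against 14.4, 13.8 and 16.9 CPM, 1.995-fold lower (adjusted p = 5.57e-13). SLAMF7, a phagocytosis receptor of the SLAM family, fell 3.91-fold, from 42.6, 46.6 and 49.01 CPM to 12.6, 11.4 and 11.4 CPM. CXCL10, a CXCR3 ligand often used as an IFN-γ readout, was at 0, 0.128 and 0.129 CPM against 0, 0.123 and 0.134 CPM, with 8 counts over the libraries of each genotype, and a difference was not detectable at this depth (adjusted p = 0.988). In antigen presentation 12 of 18 MHC class I genes rose and 1 fell: B2M, the light chain of class I, was 0.47 and TAP1, a peptide transporter chain, 0.85. Without knockout replicate 2 no class I gene was called lower. Of 19 tested genes of MHC class II presentation 11 fell and 4 rose, with a median of -1.15. This list also includes LGMN, CTSS and IFI30. Its summed level was higher in the knockout, at 2220.5 to 2326.7 CPM against 1993.2 to 2054.1 CPM in wild type. CIITA, the class II transactivator, was -0.57 with overlapping groups, LGMN, a lysosomal endopeptidase, fell from 22.9, 25.1 and 26.1 CPM to 2.23, 1.91 and 2.84 CPM (log2 fold change -3.40 ± 0.10 SE, with adjusted p = 2.23e-22), and HLA-DQA1 was at 0.0720, 0.319 and 0.226 CPM against 2.10, 2.28 and 2.78 CPM. CD74, the invariant chain, fell by 0.11 and the protease CTSS rose by 0.70 (in a chromosome 1 block at 0.51). Several genes of the MHC region were low and scattered between replicates, HLA-DRA for instance at 1.87, 0 and 1.29 CPM against 4.88, 4.13 and 0 CPM (adjusted p = 0.0513). Reads of near-identical HLA genes and of overlapping genes such as IFI30 may have been lost or shifted in counting, so their values are uncertain.

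More cytokine genes fell than rose. Of 19 tested inflammatory cytokine genes 9 fell and 2 rose. CSF1, the macrophage growth factor, was at 20.7, 23.2 and 19.9 CPM in knockout libraries and 177, 222 and 243 CPM in wild type, a 10.05-fold fall (log2 fold change -3.33 ± 0.09 SE, with adjusted p = 2.73e-24). IL10, the anti-inflammatory cytokine, was at 0.648, 0.957 and 0.968 CPM against 3.51, 2.77 and 4.33 CPM, and IL1B at 3.10, 3.38 and 3.68 CPM against 5.03, 3.95 and 5.03 CPM (log2 fold change -0.46 ± 0.14 SE, with adjusted p = 0.00716). The knockout libraries lay below wild type for all 3 genes. TNF fell by 2.43 on the log2 scale but was at 0.144, 0 and 0.194 CPM against 0.495, 0.740 and 0.604 CPM, and as a gene of the MHC region it is uncertain. VEGFA, an angiogenic factor, rose from 46.3, 48.04 and 53.1 CPM to 86.1, 88.2 and 84.8 CPM and IL18 by 0.31. IL6 and CSF2 had 0 counts in all 6 libraries. Of 17 tested chemokine genes 6 fell and 2 rose. Beside CCL2, the falls were CXCL12 (-2.36), CCL3 (-1.65), CXCL16 (-1.38), CCL5 (-0.51) and CCL7, which had 0 counts in the knockout and was at 0.229, 0.740 and 0.403 CPM in wild type. CXCL16, a membrane-bound chemokine that also binds oxidised lipid, and CCL5 were the only falls among them above 10 CPM in wild type. CXCL8, the neutrophil-attracting interleukin-8, rose from 16.1, 13.4 and 14.5 CPM to 24.6, 26.9 and 25.2 CPM (log2 fold change 0.80 ± 0.08 SE, with adjusted p = 8.83e-10), and CCL24, an eotaxin, from 14.4, 12.9 and 12.2 CPM to 36.03, 36.1 and 37.6 CPM.

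Every one of the 21 tested chemoattractant receptors was called, 11 higher and 10 lower, and none had overlapping libraries (over all genes 56.1% did not overlap). The formyl peptide receptors FPR1 and FPR2, which detect bacterial peptides, rose 2.49-fold and 3.29-fold, and FPR2 was at 6.34, 7.08 and 6.45 CPM against 2.13, 1.85 and 2.08 CPM. CCR2, the receptor for CCL2, rose by 0.83 and CXCR2, a receptor for CXCL8, by 0.75. CMKLR1, the chemerin receptor, fell from 4.34, 5.49 and 5.30 CPM to 0.648, 0.383 and 0.323 CPM, and ACKR3, a scavenging receptor for CXCL12, from 1.68, 1.60 and 2.01 CPM to 0.144, 0.255 and 0.0645 CPM. CX3CR1 (-1.27), C3AR1 (-0.89) and CCR1 (-0.35) were lower too.

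Markers that rise when monocytes become macrophages were mostly lower in the knockout. Of 28 macrophage differentiation markers 19 (67.9%) fell and 4 rose. MSR1, scavenger receptor A, was at 6.55, 6.54 and 6.97 CPM against 37.4, 45.6 and 44.9 CPM (log2 fold change -2.68 ± 0.09 SE, with adjusted p = 1.03e-21). MRC1, the mannose receptor CD206, was at 7.95, 8.23 and 7.75 CPM against 28.4, 32.1 and 34.8 CPM, and CD163, the haemoglobin scavenger receptor, at 9.68, 7.81 and 8.71 CPM against 25.9, 26.1 and 23.8 CPM. Neither gene's groups overlapped, and the falls were 3.99-fold and 2.90-fold. LYZ (-0.53), CD9 (-0.99), CD86 (-0.46), ITGAM (-0.25) and ITGAX (-0.15) fell by less. LYZ and CD9 lie in lowered blocks of chromosome 12, with medians of -0.60 and -0.41. CD68 was listed at 0.0720, 0.128 and 0.194 CPM against 0.648, 0.401 and 0.570 CPM; other genes overlap it and reads shared by overlapping genes were not assigned, so its level is not reliable. The rises were CD14 (0.28), CSF1R (0.20) and the Fc receptors FCGR2A (0.85) and FCGR3A (1.23), the last pair in a block of chromosome 1 with a median of 0.40. Outside raised or lowered blocks 15 of 21 markers fell and 2 rose. SPI1, the myeloid master regulator PU.1, was at 257, 243 and 237 CPM against 231, 265 and 252 CPM (log2 fold change -0.02, adjusted p = 0.717).

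Genes of monoblasts and of neutrophil granules were mostly higher. Of 23 tested members 16 (69.6%) rose and 5 fell. ELANE, neutrophil elastase, was at 36.6, 32.5 and 28.2 CPM against 16.9, 19.2 and 16.4 CPM (log2 fold change 0.88 ± 0.09 SE, with adjusted p = 4.47e-10). The transcription factors GFI1 (0.84), MYB (0.67), RUNX1 (0.57) and HOXA9 (0.55), the receptor FLT3 (0.72) and the granule proteins CTSG (0.76), RNASE2 (0.67), AZU1 (0.57) and PRTN3 (0.53) rose, as did KIT. MYC, a growth regulator, moved the other way, from 26.7, 32.6 and 32.1 CPM to 15.01, 14.3 and 15.3 CPM, and MPO was lower at about 1 CPM against 2 CPM. Apart from KIT no member rose 2-fold, and 2 members fell at least 2-fold.

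Markers associated with alternatively activated macrophages did not move as 1 group: 17 of 34 fell and 12 rose. MAF, a transcription factor that drives IL10 and C1Q genes, fell from 15.6, 17.5 and 19.8 CPM to 3.38, 2.93 and 3.16 CPM (log2 fold change -2.48 ± 0.13 SE, with adjusted p = 1.68e-16), and C1QA from 11.4, 16.03 and 14.6 CPM to 5.04, 6.12 and 5.81 CPM. STAB1, a scavenger receptor of tissue macrophages, rose from 33.04, 28.6 and 24.3 CPM to 105, 106 and 102 CPM (log2 fold change 1.87 ± 0.07 SE, with adjusted p = 2.51e-20) and VSIG4, a complement receptor, from 9.64, 5.86 and 6.31 CPM to 26.8, 25.7 and 25.7 CPM. TREM2 (0.52), MERTK (0.65) and APOE (0.37, in a chromosome 19 block with a median of 0.37) were also higher, while LPL, SPP1 and CD9 were lower. Among 43 Fc, scavenger and lectin receptors 23 fell and 11 rose, and 13 of the falls reached 2-fold. Beside CD93, COLEC12, MSR1 and MRC1 these falls included the inhibitory receptor LILRB1 (-1.75) and the sialic acid receptor SIGLEC10 (-1.48). LRP1, a large endocytic receptor, fell by 0.88 from 1244, 1686 and 1426 CPM.

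The other measured syndecans were not higher in the knockout. SDC2, which also carries heparan sulphate, was at 214, 215 and 225 CPM in the knockout and 306, 300.5 and 299.8 CPM in wild type (log2 fold change -0.47 ± 0.04 SE, with adjusted p = 9.67e-12). SDC4, the widely expressed family member of focal adhesions, was at 58.7, 55.9 and 60.1 CPM against 84.8, 84.9 and 83.7 CPM (log2 fold change -0.54 ± 0.05 SE, with adjusted p = 6.84e-11). Both were lower in every knockout library. SDC1, the epithelial and plasma cell syndecan, was near the limit at 0.288, 0.255 and 0.258 CPM against 0.381, 0.863 and 1.14 CPM, and its call was lost without wild-type replicate 3 (adjusted p = 0.0848). Over 23 tested proteoglycan genes 10 fell and 7 rose. GPC3, a glypican, rose from 15.9, 12.6 and 13.8 CPM to 30.6, 29.7 and 27.6 CPM and HSPG2, the basement membrane proteoglycan perlecan, from 50.2, 59.6 and 44.4 CPM to 104, 112 and 101 CPM. SRGN, the granule proteoglycan serglycin, rose by 0.57. CD44 fell by 0.35. The summed level of the list was 2338 to 2361 CPM in the knockout and 2316 to 2343 CPM in wild type.

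Of 22 genes that build, sulphate or trim heparan sulphate 8 (36.4%) fell and 6 (27.3%) rose, against 24.8% and 25.4% of all genes. SULF2, an extracellular enzyme that removes 6-O-sulphate groups, stood at 6.16, 6.15 and 6.55 CPM against 33.1, 42.2 and 43.4 CPM, a 6.30-fold fall (log2 fold change -2.66 ± 0.11 SE, with adjusted p = 3.10e-19). HS2ST1 (-0.61) and HS6ST1 (-0.57), the 2-O- and 6-O-sulphotransferases, were lower, and EXT2 (0.47), a chain polymerase subunit, was higher. NDST1, which starts sulphation, was at 238, 251 and 244 CPM against 231, 253 and 236 CPM (log2 fold change 0.03, adjusted p = 0.638).

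Most immediate early factors and feedback genes of ERK signalling were lower in the knockout. Of 30 tested members of the list 18 fell and 5 rose, and 12 of the falls reached 2-fold. EGR1, a zinc finger factor induced within minutes by ERK, was at 2.95, 2.17 and 2.78 CPM against 9.53, 11.5 and 13.5 CPM (log2 fold change -2.13 ± 0.17 SE, with adjusted p = 3.25e-12). DUSP5, a nuclear ERK phosphatase, was at 2.59, 1.63 and 2.90 CPM against 13.8, 13.6 and 17.04 CPM (log2 fold change -2.64 ± 0.14 SE, with adjusted p = 1.10e-16). ATF3, a stress-induced AP-1 partner, fell from 104, 117 and 118 CPM to 35.6, 34.1 and 34.2 CPM, and KLF6 from 209, 225 and 220.5 CPM to 94.9, 98.6 and 98.97 CPM. JUN (-1.09), EGR2 (-1.20), EGR3 (-1.73), FOSL1 (-1.71), DUSP2 (-1.83), DUSP4 (-1.04) and SPRED1 (-1.88) fell with them. FOSL2 (0.74), FOS (0.33), JUND (0.21), KLF4 (0.71) and DUSP6 (0.15) rose. With IFN-γ the median of this list was 0.02, with 11 genes higher and 8 lower. The difference between the genotype effects of both treatments was called for 16 of the 30 genes (15.5% of all genes), 12 of them more positive with IFN-γ.

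In the NF-κB list 9 of 29 genes rose and 11 fell, none by 2-fold. TNFAIP3, an inhibitor of the pathway, fell from 32.4, 39.8 and 37.1 CPM to 21.5, 20.8 and 21.4 CPM and RELB rose from 16.2, 19.3 and 16.9 CPM to 28.5, 28.9 and 26.1 CPM. Of 33 Toll-like receptor and inflammasome genes 18 rose and 7 fell. MEFV, the inflammasome sensor pyrin, rose from 12.9, 11.4 and 10.7 CPM to 36.8, 33.9 and 35.5 CPM (log2 fold change 1.61 ± 0.07 SE, with adjusted p = 6.02e-18). TLR2 (0.42), TLR4 (0.39), NLRP3 (0.26), CASP1 (0.60) and GSDMD (0.51) rose too, while the adaptors MYD88 (-0.32) and LY96 (-0.66) and the kinase RIPK2 (-0.69) fell.

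Most mitosis genes were slightly lower in the knockout. Of 46 tested members 30 (65.2%) fell, none rose and none changed 2-fold, with a median of -0.22. Without wild-type replicate 1, 21 fell and none rose. AURKB, a kinase of chromosome segregation, was at 5.98, 6.92 and 7.49 CPM in the knockout and 13.2, 14.03 and 11.5 CPM in wild type (log2 fold change -0.92 ± 0.11 SE, with adjusted p = 4.21e-08). FOXM1, the transcription factor of G2 and M phase genes, was at 22.3, 22.9 and 20.8 CPM against 35.5, 37.6 and 35.5 CPM (log2 fold change -0.72 ± 0.09 SE, with adjusted p = 1.06e-07). TOP2A (-0.27), CDK1 (-0.38) and CCNB1 (-0.25) fell by less. The proliferation marker MKI67 was at 218, 233 and 223 CPM against 247, 264 and 223 CPM, with overlapping groups, a log2 fold change of -0.12 ± 0.06 (SE; adjusted p = 0.0785) and a call that depended on the fit. Of 42 DNA replication genes 19 fell and 2 rose (median -0.17). TYMS, thymidylate synthase, fell from 40.4, 37.7 and 39.6 CPM to 25.4, 24.9 and 22.8 CPM and PRIM1, a primase subunit, from 14.6, 15.2 and 14.3 CPM to 9.75, 8.64 and 8.75 CPM. All 4 of these genes lie in lowered blocks of neighbouring genes (described below), with block medians of -0.39 for AURKB, -0.41 for FOXM1, -0.42 for TYMS and -0.68 for PRIM1. Outside such blocks 27 of 42 mitosis genes and 17 of 39 replication genes fell. Without knockout replicate 1 a single replication gene rose. RRM2, a ribonucleotide reductase subunit, was at 38.2, 38.2 and 37.02 CPM against 42.4, 37.2 and 33.6 CPM. With IFN-γ the same lists had medians of -1.88 and -0.77, all 46 mitosis genes were lower, and the difference between treatments was called for 43 of 46 and 25 of 42, each more negative with IFN-γ.

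**Figure D4:**
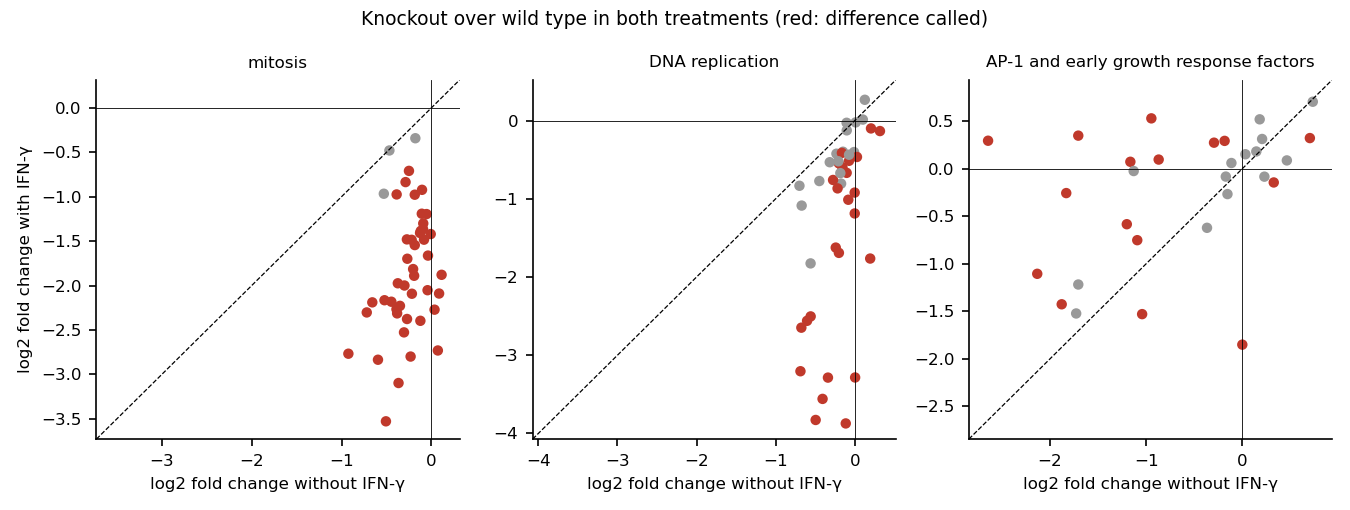
Log2 fold change of knockout over wild type without IFN-γ (horizontal) and with it (vertical) for the tested genes of 3 lists; the dashed line marks equal values and red points have a called difference between treatments. Most mitosis genes lie below the line, while most AP-1 and early growth response genes that fell lie above it.

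Cell cycle promoters were searched in the same way, since 2 elements define these programmes: TTTGAA, the core of the cell cycle homology region of G2 and M phase genes, and TTTCCCGC or TTTGGCGC, bound by E2F factors, each on both strands of the 250 bases before the start. Among 23 mitosis genes that fell and had a promoter 14 (60.9%) held TTTGAA, against 8.77% of all promoters. Among 17 replication genes that fell 6 (35.3%) held an E2F element, against 2.97%. Over all tested mitosis genes 21 of 39 held the first element, and over all tested replication genes 14 of 37 (37.8%) held the second. Matches are in capitals on the gene's strand, first for 4 mitosis genes and then for 3 replication genes:
CCNB2: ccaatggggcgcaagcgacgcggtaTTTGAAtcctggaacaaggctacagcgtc
BUB1B: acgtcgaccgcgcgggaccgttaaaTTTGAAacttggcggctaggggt
KIF23: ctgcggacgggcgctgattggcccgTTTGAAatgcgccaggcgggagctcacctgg
PLK1: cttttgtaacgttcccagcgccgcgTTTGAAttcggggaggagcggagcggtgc
TYMS: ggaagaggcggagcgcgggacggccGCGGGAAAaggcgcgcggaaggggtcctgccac
PCNA: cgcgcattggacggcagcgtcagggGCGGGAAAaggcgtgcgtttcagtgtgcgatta
E2F1: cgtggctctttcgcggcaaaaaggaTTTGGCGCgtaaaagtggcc
Their positions are CCNB2 chr15:59105092-59105145 (plus strand), BUB1B chr15:40161021-40161068 (plus strand), KIF23 chr15:69414269-69414324 (plus strand), PLK1 chr16:23678835-23678888 (plus strand), TYMS chr18:657589-657646 (plus strand), PCNA chr20:5126649-5126706 (minus strand) and E2F1 chr20:33686386-33686430 (minus strand). These 7 genes fell by 0.18 to 0.69 on the log2 scale: CCNB2 (-0.29), BUB1B (-0.19), KIF23 (-0.37), PLK1 (-0.18), TYMS (-0.69), PCNA (-0.27) and E2F1 (-0.60).

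The brakes of the cycle did not move together. CDKN1A, the inhibitor p21, was at 330.2, 326 and 324 CPM against 305, 323 and 324 CPM (log2 fold change 0.04 ± 0.04 SE, with adjusted p = 0.396, not called). CCND1, cyclin D1, fell 11.1-fold from 12.6, 15.7 and 16.8 CPM to 1.66, 1.40 and 1.03 CPM, CCND2 fell by 1.14, and CCND3 rose by 0.45. CDK4 (-0.86) and CDK2 (-0.86) lie in lowered blocks of chromosome 12. BTG1, an antiproliferative gene, rose from 226, 189 and 199 CPM to 319, 339.6 and 336 CPM. Of 25 p53 targets 12 fell and 6 rose: GDF15, a stress cytokine, fell from 30.6, 36.4 and 37.6 CPM to 11.8, 9.95 and 10.8 CPM (log2 fold change -1.69 ± 0.10 SE, with adjusted p = 1.93e-15), while MDM2 (-0.47) and FAS (-0.73) fell by less and BAX (0.16) rose. MDM2 lies in the chromosome 12 block at -0.60. Without wild-type replicate 3 only 3 p53 targets rose. THP-1 is known as a line that lacks working p53. In the apoptosis list 16 of 36 rose and 10 fell; MCL1 (0.62), BCL2L11 (0.60) and CASP9 (0.82) rose, and BCL2 fell from 12.5, 14.6 and 13.2 CPM to 4.32, 4.46 and 5.002 CPM. MCL1 lies in the chromosome 1 block at 0.51 and BCL2 in a chromosome 18 block at -0.51.

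Adhesion and matrix genes changed in both directions. Among 39 integrin and adhesion genes 16 fell and 11 rose. ITGA3, a laminin-binding chain, fell from 50.003, 67.1 and 59.8 CPM to 13.1, 12.4 and 13.6 CPM (log2 fold change -2.18 ± 0.09 SE, with adjusted p = 8.35e-19), and ITGB5, a vitronectin receptor chain, by 1.42 from 278, 316 and 317 CPM. ITGB3 (-2.03) and the neural adhesion molecule L1CAM (-3.02) fell from near 10 CPM. ITGA6 rose, as above, together with ITGA9 (1.41), and ITGB2, the shared chain of leukocyte integrins, rose by 0.69. Of 35 matrix genes and proteases 14 rose and 14 fell. The coagulation starter F3, tissue factor, fell from 3.96, 4.32 and 5.64 CPM to 1.15, 1.08 and 0.775 CPM, TIMP3 fell by 1.21 and MMP9, gelatinase B, by 0.42, whereas TIMP1 (0.78), TGFBI (0.98) and SPARC (0.57) rose. In the complement and acute-phase list 12 of 27 rose and 7 fell. HP, haptoglobin, rose from 36.6, 30.2 and 28.8 CPM to 106, 98.8 and 94.3 CPM (log2 fold change 1.65 ± 0.08 SE, with adjusted p = 1.98e-17) beside ORM1, ORM2 and C3, and CR1, the complement receptor CD35, fell from 35.02, 39.7 and 37.4 CPM to 6.48, 6.54 and 7.26 CPM (log2 fold change -2.47 ± 0.09 SE, with adjusted p = 3.29e-20).

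Lysosomal and lipid genes changed in both directions. Of 39 lysosomal genes 21 rose and 14 fell: CTSB, cathepsin B, fell from 2478, 2618 and 2711 CPM to 1711, 1657 and 1686 CPM, while CTSS (0.70) rose. In cholesterol and fatty acid synthesis 12 of 31 rose and 9 fell. The fatty acid enzymes FASN (-0.70), FADS2 (-0.88), ACACA (-0.37) and SCD (-0.45) fell, and the sterol enzymes DHCR7 (1.03), TM7SF2 (0.90) and FDPS (0.51) rose. LPL, lipoprotein lipase, was at 78.1, 78.4 and 82.5 CPM against 268, 275 and 284 CPM (log2 fold change -1.79 ± 0.06 SE, with adjusted p = 3.91e-22) and PLA2G7, a phospholipase carried by lipoproteins, at 38.1, 39.95 and 41.8 CPM against 167, 165 and 180.0 CPM (log2 fold change -2.10 ± 0.05 SE, with adjusted p = 2.73e-24). ABCA1, which exports cholesterol, rose from 234, 214 and 203 CPM to 334, 366 and 366 CPM.

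Stress and energy genes were called in both directions. Of 35 ATF4 and unfolded protein response genes 14 rose and 10 fell. NUPR1 rose from 25.8, 22.1 and 19.7 CPM to 63.9, 59.4 and 58.4 CPM, the cystine transporter SLC7A11 by 1.11 and the chaperone HSPA5 by 0.59, while ATF4 (-0.43), ATF5 (-0.85) and DDIT3 (-0.74) fell. Of 32 glycolysis and hypoxia genes 15 fell and 12 rose: ENO2, the neuronal enolase, fell from 18.6, 22.97 and 23.5 CPM to 3.64, 4.21 and 3.07 CPM, and GAPDH (-0.23) and ENO1 (-0.29) by less. Of 36 nuclear-encoded respiratory chain genes 10 rose and 8 fell, near the shares of all genes without regard to level. ATP5F1B was among those that fell (-0.59, in the chromosome 12 block at -0.68). The number that rose was 6 without knockout replicate 2, in the fit of only the 6 libraries and with no scaling beyond library totals. In the iron and redox list SLC40A1, the iron exporter ferroportin, rose from 15.02, 13.3 and 15.4 CPM to 30.02, 31.1 and 31.5 CPM and SLC11A1, a phagosomal metal transporter, fell from 38.7, 47.8 and 44.7 CPM to 17.9, 15.4 and 16.5 CPM. The oxidase subunits NCF1 (0.60) and NCF4 (0.39) rose while CYBB fell.

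Markers of other cell types were also compared, as whole lists. The 11 B cell markers summed to 13.9 to 15.9 CPM in the knockout and 25.8 to 33.4 CPM in wild type; PAX5, CD79B and CD22 fell, and MS4A1, BLK and IGHM were at 0. Erythroid and megakaryocyte markers summed to 11.6 to 15.7 CPM against 12.8 to 14.9 CPM, with the globin genes HBA1, HBA2, HBB, HBG1 and HBG2 at 0. Epithelial and fibroblast markers summed to 30.1 to 37.4 CPM against 25.4 to 30.6 CPM, with KRT5, KRT19, CDH1 and LUM at 0; of the 5 tested, 2 rose and 3 fell, all 3 by at least 2-fold, and the median log2 fold change was -1.26. The 18 dendritic cell and osteoclast markers summed to 219 to 224 CPM in the knockout and 278 to 296 CPM in wild type. Of the 12 tested, 6 fell and 4 rose. OCSTAMP, a fusion protein of osteoclasts, fell from 21.2, 23.6 and 25.1 CPM to 4.54, 4.27 and 4.68 CPM. CD83 fell from 63.6, 70.3 and 73.5 CPM to 20.8, 21.5 and 20.8 CPM, and CD1C rose from 4.12, 3.45 and 2.52 CPM to 9.61, 8.55 and 7.45 CPM.

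Differences also followed position in the genome. Of 184 tested genes on chromosome 21, 111 (60.3%) were higher in the knockout and 9 lower, with a median log2 fold change of 0.50. On chromosome 18, 142 of 245 (58.0%) were lower and 9 higher, with a median of -0.39. The next highest medians were those of chromosomes 16 (0.20), 9 (0.17) and 22 (0.13). The next lowest were those of chromosomes 12 (-0.20), 13 (-0.19), 3 (-0.17), 20 (-0.16) and 17 (-0.13), against 0.01 over all genes. In 340 blocks of about 50 neighbouring tested genes 19 had a median of 0.3 or more and 16 of -0.3 or less. The raised blocks were on chromosomes 1, 15, 16, 19 and 21. On chromosome 1 a run of 8 neighbouring blocks, from 145866560 to 175192999 (hg38), had medians of 0.31 to 0.52, and 242 of its 400 genes rose; S100A8 and S100A9 lie in the block at 0.52. The lowered blocks were on chromosomes 12, 17, 18 and 19, the lowest at 56595596 to 62600479 of chromosome 12, where 39 of 51 genes fell and none rose. With IFN-γ the chromosome medians were 0.45 for chromosome 21 and -0.39 for chromosome 18, in other libraries of the same genotypes. The raised blocks held 88 of the 518 genes that rose at least 2-fold, and the lowered blocks 98 of the 1044 that fell at least 2-fold. Raised blocks held 940 tested genes (5.49% of all), of which 9.36% rose at least 2-fold against 3.03% of all genes, and lowered blocks 812 (4.74%), of which 12.1% fell at least 2-fold against 6.1%. Since the blocks were picked by these same fold changes, the shares are a description. Of the genes described above, MX1, ITGB2, RUNX1, FPR2, C5AR2, RELB, APOE, FDPS and CD1C rose and lie in raised blocks, and COLEC12, LRP1, LILRB1, CXCL16, CCND2 and DDIT3 fell and lie in lowered ones, while CLIC6 and SLAMF7 fell in raised blocks. DNA copy number was not analysed here, and its part in these shifts was not tested.

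**Figure D5:**
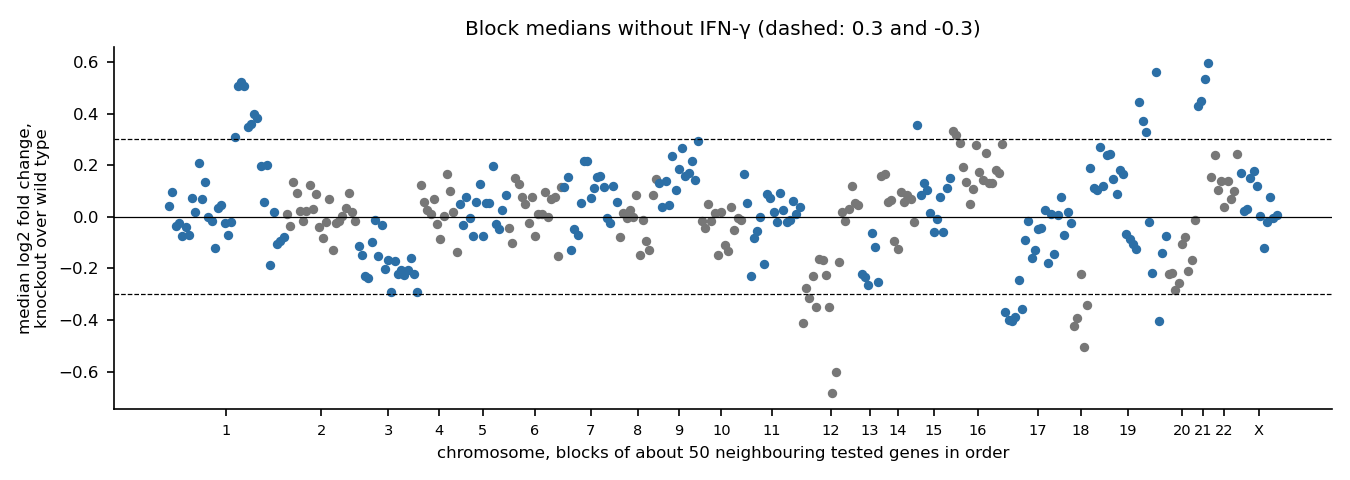
Median log2 fold change of knockout over wild type without IFN-γ in each block of about 50 neighbouring tested genes, ordered along chromosomes 1 to 22 and X; colours alternate by chromosome. All 4 blocks of chromosome 21 lie above 0.3, and the 2 lowest blocks, at -0.68 and -0.60, are on chromosome 12.

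Part of the difference was also found in cells with IFN-γ, which come from other libraries of the same 2 genotypes. Of the 4343 genes higher without IFN-γ, 2770 (63.8%) were also called higher with it (70.7% of the 3919 higher there, themselves 22.9% of all genes), and 115 were called lower. Of the 4240 lower genes 2919 (68.8%) were lower again (70.3% of the 4153 lower there, 24.3% of all genes), and 140 were higher. KIT, ORM1, CCL2, NAV3 and C3 had log2 fold changes of 3.12, 2.65, -4.30, -4.19 and 1.23 with IFN-γ, beside 2.64, 2.60, -4.44, -4.59 and 1.22 without it. A difference between the genotype effects was called for 890 of the higher genes (20.5%) and 1110 of the lower genes (26.2%), against 15.5% of all genes, and IFI6, SDC4, MKI67 and OTOF were among the named genes in which it was.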

How the data were processed

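Polyadenylated RNA of THP-1 cells after PMA was read in 12 libraries, 4 groups of 3, made with a stranded mRNA kit, per the labels' protocols. The deposited table holds raw counts per gene. Per the file headers it was made with featureCounts 2.0.3 over exons, on hg38, with no strand option and with mates of a pair counted separately, so overlapping and antisense genes cannot be told apart. fastp 0.23.2, STAR 2.7.10b, BWA and Picard 2.27.5 are named in the submitters' processing notes without a role, and the annotation is not given in the sources used here. Symbols were matched for 56948 genes, and for 499 more from GENCODE 29. No column belonged to samples of another series.

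The 12 libraries were fitted together in edgeR 4.0.16 (R 4.3.3) with TMM scaling, filterByExpr and the quasi-likelihood test, the group as the only term, two-sided, with Benjamini-Hochberg adjustment over 17119 genes. The contrast was knockout minus wild type without IFN-γ, with the same contrast with IFN-γ and the difference between both. CPM values use the TMM-scaled library sizes. The 6 libraries compared held 23616738 to 29094362 counts.

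Members, lists and the panel were chosen with earlier results of these data known. Genes named by rule were SDC3, the 12 largest called rises and falls with at least 5 CPM and no overlap, a panel of 20 genes, up to 2 called rises and falls in each of 37 lists, and the 6 most abundant rises and falls of at least 2-fold. Other list members, such as IFI44L, LGALS3BP and JUN, were named after their values were seen. Counts of called treatment differences per list were added beyond the plan. Alternatives were DESeq2 1.42.0, limma-voom (limma 3.58.1), other scalings and filters, a replicate block, only the 6 libraries, and leaving out each library; upper-quartile scaling, no scaling and lists without members of shifted blocks were chosen after seeing the data. Promoters are RefSeq's (GRCh38.p14). Values of a few genes are not reported here.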

Additional observations from a re-analysis of the deposited data

Results flagged for a closer look

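Among 43 genes, namely SDC3, the largest rises and falls and the panel, 17 had a genotype effect that differed between cells with and without IFN-γ by edgeR's quasi-likelihood test of the difference (adjusted p under 0.05; 15.5% of all genes), and 16 of them are given here. Values are the log2 genotype effect with IFN-γ minus that without it. The difference was positive for OTOF (1.69), SDC3 (1.00), SDC4 (0.93) and CDKN1A (0.39). For SDC3 the reduction was -2.28 without IFN-γ and -1.28 with it, and for SDC4 the values were -0.54 and 0.40. Among the interferon-related genes of this set it was negative for IFI6 (-1.13), MX1 (-0.56) and IRF1 (-0.47). The effect on IFI6 was 1.92 without IFN-γ and 0.79 with it. The whole lists did not all lean that way. Of 47 type I interferon-stimulated genes the called difference was more positive with IFN-γ for 17 and more negative for 12. For the 44 genes that IFN-γ induces these counts were 11 and 10, and for the receptor and JAK-STAT list 4 and 7. MKI67 had -0.12 and -2.40, a difference of -2.28. The cytokine genes TNF (-3.02) and IL1B (-1.24) were also more negative with IFN-γ, with TNF counts low and uncertain. Smaller negative differences were found for PADI2 (-0.45), CD14 (-0.34), SDC2 (-0.24) and CSF1R (-0.14), and a larger one for SYNE1 (-1.23). IGF2BP1 gave -4.32, but it had 0 counts in the knockout with IFN-γ, so that value depends on the prior count of the fit and is not a bound.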

How the results depend on the processing

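The counts of called genes kept within 1.5 times under the alternatives, except those of at least 2-fold differences under a filter of 5 CPM, which tests fewer genes: 187 higher and 421 lower. Leaving out 1 library in turn gave 3803 to 4195 higher and 3832 to 4148 lower genes, 454 to 547 and 975 to 1087 at least 2-fold, 2560 to 2798 and 2684 to 2903 called in both genotype comparisons, and 14 to 18 called treatment differences. Other alternatives gave 3756 to 4451 higher and 3445 to 4626 lower. Of 170 named genes, 158 stayed on the same side of the threshold with the same sign under all 15 alternatives that gave a value. CXCL10, at 8 counts a genotype, changed sign without knockout replicate 1 (0.49), wild-type replicate 2 (0.30) and wild-type replicate 3 (0.36), within a range down to -0.51; the cause was not tested. Of 74 list counts 9 moved by over 1.5 times in some setting: the lower interferon-stimulated genes (1, then 0 to 3), the lower MHC class I genes (1, then 0), the lower chemoattractant receptors (10, then 6 under the 5 CPM filter), the higher DNA replication genes (2, then 1), p53 targets (6, then 3) and respiratory chain genes (10, then 6), the lower epithelial and fibroblast markers (3, then 1), and the higher (1, then 0 to 2) and lower (1, then 2) T and NK cell markers. MKI67 passed the threshold in 7 settings, and SDC1 lost its call without wild-type replicate 3 (-1.23). Replicate numbers did not pair the libraries: deviations of same-numbered libraries correlated at -0.15 to 0.25 over 18 pairs. With the replicate block 4304 genes were higher and 4196 lower, 512 and 1033 by at least 2-fold. The fit of only the 6 libraries gives no value for results that need IFN-γ. Depth limits statements on genes under about 0.1 CPM.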
